A study of Mus musculus with 54 samples.

Results

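Clone C is 1 of 23 clones of 4T1, a mouse mammary carcinoma line that forms tumors in the mammary gland and spreads to the lung, and each clone was grown from a single cell. The 2 RNA-seq libraries of clone C, lettered A and B, were taken by their labels and set against the 44 libraries of the other 22 clones, out of 54 libraries in the series. Clone C carries the label non-intravasating, as do 20 of the other 22 clones, while clones E and T are labelled intravasating. All clones were cultured in the same serum-supplemented high-glucose medium, and the labels name no transgene, drug or other treatment for any of them. The remaining 8 libraries, from 2 tumors and 2 lung metastases, served only to look up values. Clone C is a single clone with no independent isolate, and the labels do not say whether its libraries came from separate cultures, so the spread between them may be technical.

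Several gene programmes that vary among carcinoma clones serve as background for these values. Hif1a encodes the oxygen-regulated subunit of hypoxia-inducible factor, which is marked for destruction by prolyl hydroxylases such as Egln1 and Egln3 when oxygen is present and otherwise switches on genes of glycolysis, acid handling and vessel growth. Matrix metalloproteinases are secreted enzymes that cut extracellular matrix, and several of their genes are known targets of the transcription factors AP-1 and NF-kB. The same factors drive chemokines and colony-stimulating factors, through which 4T1 tumors are known to raise the number of granulocytes in mice.

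Library A of clone C held 11165175 reads assigned to genes and library B held 22409067, against 8849257 to 31609870 in the other clones' libraries. Library A is the shallower of the pair and still had reads in 16062 genes, against 15094 in library B, and 42 of the 44 other libraries had fewer genes with a read than library A. The pair correlated across genes at r = 0.996, within the range of 0.987 to 0.997 over the 23 clones. Rn45s, a ribosomal RNA precursor, took 3.47% of the reads in library A and 2.26% in library B. All 10 listed markers of mammary carcinoma epithelium were measured, and their summed level was 46517 normalised counts in clone C, against 20871 to 92615 in the other clones. Among genes that mark other cell types, Pdgfrb, Col1a2, Col3a1, Lum and Thy1 of fibroblasts, Kdr and Emcn of endothelium, C1qa and C1qb of macrophages and S100a9 of neutrophils had no read in either clone C library. Other markers of those lists were present. The 10 fibroblast markers summed to 892.5 normalised counts in clone C, against 121 to 1807 in the other clones, nearly all of it from Pdgfra, a growth factor receptor with 834 and 943 counts in clone C that was higher at the library level. The 8 macrophage markers summed to 316 in clone C, against 186 to 2232, with Cd14 and Mrc1 higher and Cd68 lower. The 9 endothelial markers summed to 99.7 in clone C, the highest of the clones, against 7.55 to 90.1, mostly from Tie1. The neutrophil markers found in the table summed to 8.96 in clone C, against 0.959 to 912. The part of these markers in the results was not tested.

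How far clone C stood from the others was asked in 3 ways. With 1 value per clone, averaged over libraries A and B on the deposited log2 scale, limma called 8 genes higher (0.0587%) and 2 lower (0.0147%) in clone C out of 13637 genes tested, at a Benjamini-Hochberg adjusted p under 0.05. Among the genes called higher, Pde1b, Onecut3, Shank3 and Gm3336 met the filter of 10 counts in 2 libraries through their clone C libraries. Their calls thus rest on the values that let them be tested, and the count of 8 includes them. The lone clone C is assumed in this test to vary like the other clones. At an unadjusted p under 0.05 there were 437 genes higher and 319 lower. The count of calls depended strongly on weakly expressed genes. With no filter on low values limma called 828 genes higher and 18 lower in clone C, and with a minimum of 50 normalised counts in 2 libraries it called 0 higher and 1 lower, beside 378 and 297 at an unadjusted p under 0.05. Leaving out clone U gave 12 higher and 6 lower. Under the same test with each clone in turn against the rest, clone C had 10 calls, against 730 for G, 99 for J, 56 for S, 23 for O, 20 for A and at most 6 for each of the others. Genes that met the filter through 1 clone alone were not set apart in these counts.

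At the level of libraries, where the error is the spread between the 2 libraries of each clone, limma called 3011 genes (22.1%) higher and 2735 (20.1%) lower in clone C than in the mean of the other 22 clones. This test says that the 2 libraries of clone C differ from that mean, not that clone C lies outside the range of clones. A stricter count took the genes for which both clone C libraries lay beyond all 44 other libraries. It found 292 genes (2.14%) above and 170 (1.25%) below, and without clone U, which can only keep or raise the count, it found 347 above and 254 below. Below, a gene is called higher or lower at the library level by the limma test over libraries, and outside the range by this count.

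Among the genes past the threshold with 1 value per clone, S100a16 (chromosome 3 from 90537254 to 90543151, mm10), which encodes an EF-hand calcium-binding protein, was higher in clone C. S100a16 had 191 and 199.7 normalised counts in the libraries of clone C, against 1.03, 8.83 and 36.5 as the lowest, median and highest mean of the other clones. Both libraries lay above every other clone, at 22.1 times the median of the others and 5.36 times clone H, the next highest. The difference was 2.21 ± 0.39 on the deposited log2 scale (SE over 23 clones, limma adjusted p = 0.0194), and the call was lost with a minimum of 50 counts, on library A alone and on log2(normalised count + 1), where the adjusted p was 0.75. Cyth4 (chromosome 15 from 78597047 to 78622019), an exchange factor that activates ARF GTPases, had 150 and 141 normalised counts in clone C, against 0, 7.82 and 43.6 in the other clones as lowest, median and highest. No other clone reached either value, and the difference of 1.95 ± 0.35 passed at an adjusted p of 0.0237 in limma, but not with a minimum of 50 counts, without clones E and T, or on log2(normalised count + 1) (adjusted p = 0.746).

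Slc12a5 and Mmp9 are neighbours on chromosome 2, 4996 bases apart, and both lay above every other clone library in clone C. Slc12a5 (164960846 to 164999731), a potassium-chloride cotransporter best known from neurons, had 139 and 98.3 normalised counts in clone C, against 13.8, 28.0 and 44.8 in the other clones. Its difference of 1.16 ± 0.22 had a limma adjusted p of 0.0381 and stayed past the threshold under 21 of 31 alternatives. Mmp9 (164940326 to 164955850), the gelatinase of matrix and basement membrane collagen, had 3524 and 3731 normalised counts in clone C, against 67.5, 606 and 3142 in the other clones. Clone G came closest, and with 1 value per clone the Mmp9 difference of 2.67 ± 1.10 had an adjusted p of 0.861 in limma.

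A further 4 genes past the threshold had few reads and are named after their values were seen. Panx2, a pannexin channel subunit, had 52.0 and 48.0 normalised counts in clone C, against at most 11.5 in any other clone. Pde1b, a cyclic nucleotide phosphodiesterase, had 13.8 and 19.6 in clone C, against at most 3.82, which was in clone U. Onecut3, a homeodomain transcription factor, had 16.8 and 17.3 in clone C, against at most 3.26. Shank3, a scaffold of the postsynaptic density, had 21.4 and 18.1 in clone C, against at most 5.36. These 4 genes had a limma adjusted p of 0.0274, 0.00154, 0.00305 and 0.0034 in the order given, and Panx2 lost its call on either library letter alone and on log2(normalised count + 1), where its adjusted p was 0.517. Their levels in clone C were low in themselves, and none of the 4 was tested with a minimum of 50 counts. For Pde1b, Onecut3 and Shank3 the 2 clone C libraries met the filter of 10 counts in 2 libraries by themselves. No other clone mean reached 10 for these genes, so their calls rest on the values that let them be tested. The predicted gene Gm3336, with 15.3 and 17.3 counts in clone C, against at most 4.62 elsewhere, made up the 8 higher calls. Its limma adjusted p of 0.0495 sat at the threshold. It passed under 7 of the 30 alternatives that gave it a value, with an adjusted p of up to 0.599. Gm3336 too met the filter through its clone C libraries, with no other clone mean at 10 counts.

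On the deposited log2 scale the largest change in either direction was the near absence of Fam111a (chromosome 19 from 12573510 to 12589769). It encodes a serine protease that binds PCNA and is known from human cells for restricting virus replication. Fam111a had 7.65 and 5.50 normalised counts in clone C, which are 5 and 7 reads, against 423, 1445 and 2385 in the other clones as lowest, median and highest. The lowest other clone, M, held 64.3 times the level of clone C, and the median clone held 219.7 times that level, so the groups were far apart. The difference was -4.67 ± 0.58 on the deposited log2 scale (limma adjusted p = 0.000353), and it passed under all 31 alternatives with 1 value per clone, with an adjusted p between 1.6e-07 and 0.00196. Genes on either side were not near absent. Dtx4, on one side, had 311 and 313 normalised counts in clone C, against 207.5, 415 and 696 in the other clones. Only U was lower, and the difference of -0.39 was called lower at the library level (limma adjusted p = 5.16e-05) and not with 1 value per clone (adjusted p = 0.973). Zfp91, on the other side, had 2722 and 2577 in clone C, against 1623, 3115 and 4535, and it was called in neither limma test, with an adjusted p of 0.0836 over libraries and 0.993 with 1 value per clone. The predicted gene A330040F15Rik overlaps Fam111a, and its 1.53 and 0.786 counts in clone C, against at most 18.1 in the others, cannot be separated from Fam111a reads, since the strand setting of the counting is not given in the sources used here. Each library is bulk RNA, in which fewer expressing cells and less RNA per cell cannot be told apart.

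Zfp518b (chromosome 5 from 38668484 to 38684984), a zinc-finger protein, was the other gene called lower with 1 value per clone. Zfp518b had 67.3 and 37.7 normalised counts in clone C, against 167, 446 and 617 in the other clones. Both clone C values lay below all of these, but the limma adjusted p of 0.0495 sat at the threshold, and 22 of 31 alternatives lost the call.

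Other losses in clone C lay outside the range of the 44 libraries without passing with 1 value per clone. Celsr1, an adhesion receptor of planar cell polarity, had 9.18 and 4.72 normalised counts in clone C, against 34.0, 259 and 518 in the other clones. Ly9, a lymphocyte receptor of the SLAM family, had 0 reads and 1 read in the clone C libraries, against 3.82, 101 and 393 normalised counts in the others. Bmyc, a short relative of Myc, had 9.18 and 7.86 in clone C, against 34.6, 140 and 319. Tubb2b, a beta-tubulin, had 16.8 and 21.2 in clone C, against 38.6, 162 and 402, and clone U held the lowest of the other values. Nsd1, a histone H3 lysine methyltransferase, had 249 and 196 counts in clone C, against 593, 1091 and 2197, and the median of the others was 4.90 times the clone C mean. Mfsd6, a membrane transporter family member, had 263 and 308 in clone C, against 382, 1339 and 2378. For both Nsd1 and Mfsd6 clone U was again the lowest of the 22. The 6 genes differed by -1.69 (Tubb2b) to -2.48 (Celsr1) on the log2 scale, with limma adjusted p from 0.105 (Nsd1) to 0.772 (Ly9) at 1 value per clone.

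Higher outside the range were Ptges, Mmp10, Ptprz1 and Scin. Ptges, the inducible synthase of prostaglandin E2, had 2329 and 2408 normalised counts in clone C, against 8.82, 401 and 1024 in the other clones, where U was highest. Ptprz1, a receptor phosphatase, had 231 and 256 in clone C, against 0, 4.69 and 117. Scin, an actin-severing protein, had 623 and 812 in clone C, against 6.97, 81.9 and 599.7, the last in clone U. The adjusted p of Ptges, Ptprz1 and Scin with 1 value per clone ranged from 0.524 to 0.879 in limma.

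**Figure D1:**
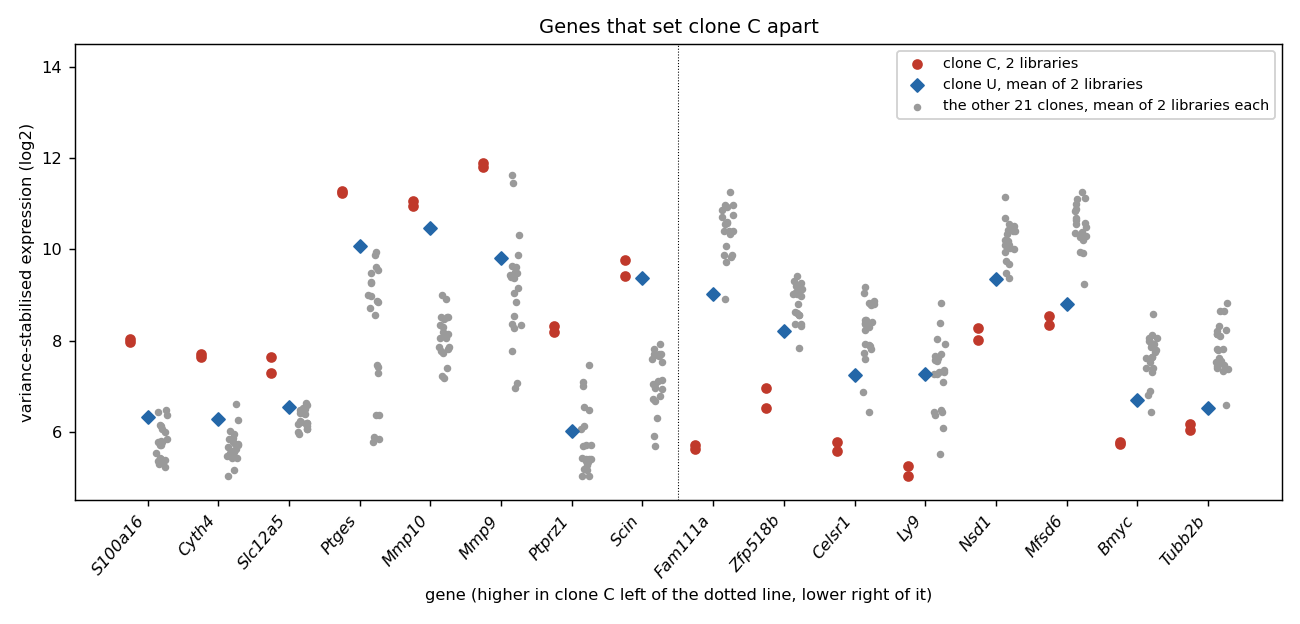
Deposited log2 expression of the 16 genes named by size of difference. Each column shows the 2 libraries of clone C (red), the mean of clone U (blue) and the means of the other 21 clones (grey). Clone C lies beyond every other clone in all 16, which the choice fixed for the genes taken from those outside the range. Fam111a is at 5.67 in clone C, against a mean of 10.3 over the others.

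Of 45 lists of pathway and family genes, 11 are described here and further ones below, all chosen after their values were seen. Hypoxia comes first. At the library level 24 of the 32 tested hypoxia and glycolysis genes were higher in clone C and 0 were lower (0 also at an unadjusted p under 0.05), beside 22.1% and 20.1% of all genes. The median difference over the list was 0.52 on the log2 scale, against -0.01 over all genes tested. The mean level of the list was 10.68 and 10.74 in the libraries of clone C, above each of the other 22 clones, which ran from 9.63 in J to 10.56 in U. With 1 value per clone 0 members passed in limma, and 5 had an unadjusted p under 0.05, all higher in clone C.

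Hif1a itself, which is not on the list and is named after its values were seen, lay above every other clone library. Hif1a (chromosome 12 from 73901324 to 73947554) had 9357 and 10332 normalised counts in clone C, against 2459, 3902 and 6601 in the other clones as lowest, median and highest. Among its known targets, Ndrg1, a stress-induced cytoplasmic protein, had 9467 and 9724 counts in clone C, against 1047, 2072 and 8403, and its difference of 2.16 ± 0.09 (SE over libraries) had a limma adjusted p of 1.83e-18 at the library level. Vegfa, the main ligand of vessel growth, had 2474 and 2318 in clone C, against 190, 553 and 1837. Both genes lay outside the range above, as did Egln1, with 3767 and 3926 in clone C, against at most 3601 elsewhere, and the pyruvate kinase Pkm, with 35172 and 36780 in clone C, against at most 33581. For Ndrg1, Egln1 and Pkm the highest of the other clones was U. The part of shifts along whole chromosomes, given below, in these values was not tested.

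Further members were high in clone C without being the highest. Car9, a membrane carbonic anhydrase and a standard marker of hypoxia, had 988 and 1067 counts in clone C, against 12.5, 274.5 and 1503 in the other clones. Only U was higher. Egln3, the most inducible of the hydroxylases, had 2906 and 3327 in clone C, against 117, 1347 and 4098, and 2 clones were higher. The list did not move as a block, since Car12, Ankrd37, Slc2a3, Gpi1, Hk1 and Slc16a3 had differences between -0.02 and 0.08. Vhl, which marks Hif1a for destruction, differed by 0.08 ± 0.10 in clone C (limma adjusted p = 0.573 at the library level).

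The promoter of Car9 is shown because its hypoxia response element is the best known of the list. Below it stand 300 bases from RefSeq (GRCm38.p6, chr4:43506776-43507075, plus strand), 250 before and 50 after the transcription start, with the core ACGTG, here read from the other strand as CACGT, in capitals. It starts 18 bases before the transcription start.
Car9: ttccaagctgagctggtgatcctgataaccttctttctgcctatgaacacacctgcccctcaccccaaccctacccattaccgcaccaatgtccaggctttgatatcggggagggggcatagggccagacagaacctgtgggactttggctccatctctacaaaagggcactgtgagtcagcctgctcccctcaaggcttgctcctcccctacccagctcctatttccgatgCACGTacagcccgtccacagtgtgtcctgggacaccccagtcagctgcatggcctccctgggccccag
The core was searched on both strands, and the window also holds 1 TGAGTCA, which does not overlap it. Of 32851 promoter windows of this length 19.6% hold the core. By gene, 20 of the 29 tested list members with a window hold it in at least 1 window, against 21.8% of all 27025 genes with a window. The list was made of hypoxia and glycolysis genes, so its share describes the choice of the list and not clone C. The 27025 genes also take in genes that were not tested here. The match describes letters and not a site in use.

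**Figure D2:**
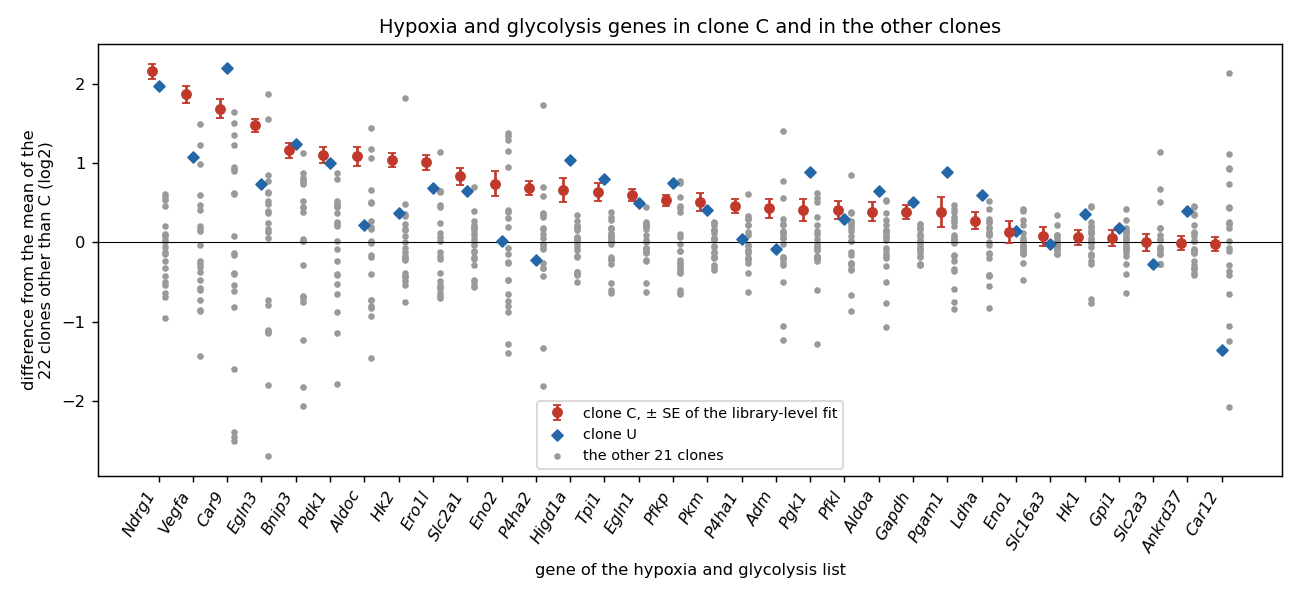
Difference of each of the 32 hypoxia and glycolysis genes from the mean of the 22 clones other than C, in log2 units, for clone C (red, with the SE of the library-level fit), clone U (blue) and the other 21 clones (grey). From Ndrg1 at 2.16 the differences of clone C fall towards 0 at the right, and clone U is raised in many of the same genes.

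Matrix proteases were the next group with clone C above all other clones. Of the 25 tested members 12 were higher and 3 lower at the library level, beside 22.1% and 20.1% of all genes, and the list mean was 8.73 and 8.78 in the libraries of clone C, against 7.88 to 8.65 in the others. Among the 12 were 3 metalloproteinase genes that lie together on chromosome 9 between 7272514 and 7510242, namely Mmp13, Mmp3 and Mmp10. Mmp10, stromelysin-2, had 1928 and 2085 normalised counts in clone C, against 86.8, 218.5 and 1346 in the other clones, of which U was highest. Mmp3, stromelysin-1, had 10926 and 11307 in clone C, against 59.5, 1926 and 12597, and clone D alone was higher. Mmp13, a collagenase, had 707 and 734 in clone C, against 9.01, 58.8 and 3449, and clone G alone was higher. The 3 differences were 2.81 ± 0.12, 2.83 ± 0.13 and 2.58 ± 0.12 in the order Mmp10, Mmp3, Mmp13 (SE over libraries), while with 1 value per clone their limma adjusted p was 0.252, 0.952 and 0.879.

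Among the membrane sheddases Adam10 and Adam17 lay outside the range above in clone C. Adam10, which cuts Notch and cadherins, had 2886 and 3446 counts in clone C, against 1097, 1757 and 2373 in the other clones. Adam17, which releases TNF and EGF receptor ligands, had 4238 and 4884 in clone C, against 1610, 2568 and 3588. The 3 lower members were Adamts5, Mmp15 and Adam19. Adamts5 had no read in either clone C library, as in clones A and U, against up to 173 counts in Q.

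The promoters of Mmp10 and Mmp3 are printed as examples from the metalloproteinase genes on chromosome 9. Both genes were far above the median clone in clone C, at 9.18 times its level for Mmp10 and 5.77 times for Mmp3. Mmp13 was also far above the median clone, and its window is not printed. The windows are from RefSeq (GRCm38.p6), chr9:7502092-7502391 for Mmp10 and chr9:7445572-7445871 for Mmp3, both on the plus strand. Capitals mark TGANTCA, the AP-1 element, which reads the same on both strands and starts 63 bases before the transcription start in Mmp10 and 46 bases before it in Mmp3.
Mmp10: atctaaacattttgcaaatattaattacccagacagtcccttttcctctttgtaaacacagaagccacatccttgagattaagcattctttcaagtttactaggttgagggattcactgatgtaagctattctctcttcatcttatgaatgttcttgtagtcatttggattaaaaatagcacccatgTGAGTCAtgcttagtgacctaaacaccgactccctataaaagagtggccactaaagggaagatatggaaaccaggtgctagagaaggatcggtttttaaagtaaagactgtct
Mmp3: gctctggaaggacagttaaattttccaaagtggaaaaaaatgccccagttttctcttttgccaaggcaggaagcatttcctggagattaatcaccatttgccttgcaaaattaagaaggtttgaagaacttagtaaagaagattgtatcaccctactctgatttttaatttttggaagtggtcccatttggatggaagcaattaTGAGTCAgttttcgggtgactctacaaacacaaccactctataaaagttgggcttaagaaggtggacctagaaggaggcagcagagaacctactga
Of all 32851 windows 7.81% hold TGANTCA. By gene, 4 of the 16 tested matrix proteases with a window hold it (Adam19, Mmp10, Mmp13 and Mmp3), against 8.97% of all genes with a window, tested or not. One of the 4, Adam19, was lower in clone C with 979 and 1004 counts, against a median of 1839. The share describes the list and not clone C.

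Inflammatory ligands were high in clone C, although clone G exceeded it in most of them. Of 19 chemokines and colony-stimulating factors 12 were higher and 1 lower at the library level, and of 24 genes of IL-1, NF-kB and the acute phase 12 were higher and 2 lower, beside 22.1% and 20.1% of all genes. Both lower calls among the NF-kB genes were lost without library A of clone C. Clone C held the next highest mean after G for both lists, at 8.10 against 9.51 in G for the chemokines and 8.25 against 9.41 in G for the NF-kB genes, where the median clones held 7.15 and 7.41. Without clone G 14 chemokines and 13 NF-kB genes were higher.

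Among the ligands Csf3, the granulocyte colony-stimulating factor, had 3008 and 2982 normalised counts in clone C, against 130, 317 and 4918 in the other clones, a level of 9.46 times the median clone. Cxcl5, a neutrophil chemokine, had 3525 and 4076 in clone C, against 91.9, 297 and 34278. Cxcl1, its close relative, had 1692 and 1599 in clone C, against 46.5, 210 and 16206. For all 3 the highest other clone was G, and for Csf3 it was the only one above clone C. Il1a, the alarm cytokine interleukin-1 alpha, had 1793 and 1878 in clone C, against 11.7, 89.8 and 24418, and 3 clones were higher. Among the targets C3, the central complement component, had 3169 and 3485 in clone C, against 11.2, 229 and 11894, and Lcn2, a siderophore-binding acute-phase protein, had 1395 and 1328 in clone C, against 0, 54.1 and 39410. The inhibitor of apoptosis Birc3, a textbook NF-kB target, lay outside the range, with 606 and 683 in clone C, against at most 523. So did the decoy chemokine receptor listed as Cxcr7, with 1308 and 1437 in clone C, against at most 1081.

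Immediate early genes, whose transcripts follow growth factor signals within minutes, had the highest mean of the 23 clones in clone C, with 9.13 and 9.19 in its libraries, against 8.38 to 9.08 in the others, of which G was highest. Of 29 members 20 were higher and 2 lower at the library level, beside 22.1% and 20.1% of all genes, and both lower calls were lost without library A of clone C. The number of higher calls also fell without library B of clone C. Ier3 had 6348 and 5886 normalised counts in clone C, against 1029, 2020 and 8111 in the other clones, and Egr2, a zinc-finger transcription factor, had 196 and 177 in clone C, against 10.6, 60.1 and 215. Phlda1 was outside the range, with 3251 and 3398 in clone C, against at most 2989. Fos, the partner of Jun in AP-1, was one of the 2 lower members, with 3.06 and 5.50 counts in clone C, against 3.02, 10.5 and 29.7, and a limma adjusted p of 0.0489 at the library level.

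Of 24 growth factor ligands and receptors 10 were higher and 5 lower in clone C at the library level, beside 22.1% and 20.1% of all genes, and without library A of clone C 3 were lower. The share of lower members was thus near that of all genes. Clone C had the highest list mean for TGF-beta and BMP, with 9.55 and 9.61 in its libraries, against 9.02 to 9.46 in the others, and 11 of 26 members were higher and 2 lower at the library level (1 lower without library A of clone C). Id2, a dominant-negative helix-loop-helix protein, had a difference of 1.495 ± 0.15, with 1392 and 1294 counts in clone C, against 29.6, 466 and 2302 in the other clones. Tgfbi, a secreted matrix protein induced by TGF-beta, had 122 and 108.5 in clone C, against 1.56, 12.9 and 79.4, and lay outside the range. So did Ltbp1, which stores latent TGF-beta in the matrix, with 8634 and 8926 in clone C, against at most 6985, the receptor Tgfbr2, with 5516 and 5662, against at most 5311, and the SMAD repressor Skil, with 5282 and 5987, against at most 4465. Of the EGF receptor ligands Areg had 2580 and 2804 counts in clone C, against 119, 700.0 and 1909, and Hbegf had 3813 and 4070, against at most 3307. Their receptor Egfr was at 10.7 and 7.08 counts in clone C, below all other clones, which ran from 14.4 in U to 849 in G.

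Of the 22 genes of prostaglandin and hyaluronan handling 7 were higher and 4 lower in clone C at the library level (2 lower without library A of clone C). These shares are near the 22.1% and 20.1% of all genes, so single members are given here and the count is no result about the list. Ptgs1, a cyclooxygenase, had 3178 and 3505 normalised counts in clone C, against 45.8, 516 and 4701 in the other clones. Slco2a1, the prostaglandin transporter, had 16909 and 17301 in clone C, against at most 13708, and Has2, a hyaluronan synthase, had 8131 and 9633 in clone C, against 330, 2639 and 8769, the last in U. The inducible cyclooxygenase Ptgs2 had 7089 and 8062 in clone C, inside the range of 782 to 28043 of the others.

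Lower groups were fewer. Of 40 nuclear genes of oxidative phosphorylation 1 was higher and 14 lower in clone C at the library level, beside 22.1% and 20.1% of all genes, the list mean of 10.71 was undercut by 1 clone (O), and the median difference was -0.20. Uqcrq, a subunit of complex III, had 751 and 631 counts in clone C, against 912, 1534 and 2016 in the other clones. Cox5b of complex IV had 854 and 685 in clone C, against at least 942, and Ndufb3 of complex I had 551 and 518, against at least 611. All 3 were below the range, and the list's count depended on the libraries, with 4 lower on library B of clone C alone. With 1 value per clone 5 members had an unadjusted p under 0.05, all lower. Cox5b and Ndufb3 lie on chromosome 1, whose genes were low in clone C as a whole.

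Interferon-stimulated genes showed 2 higher and 25 lower of 35 at the library level, beside 22.1% and 20.1% of all genes. Without library A of clone C 1 was higher and 16 lower, and without clone G 2 were higher and 18 lower. In rank clone C was unremarkable here, with a list mean of 7.34 that 13 clones exceeded, against a median clone at 7.62 and 11.2 in G. Oasl1, an antiviral sensor, had 64.3 and 76.2 counts in clone C, against 24.1, 196 and 538 in the other clones, and Rtp4 had 49.0 and 59.0, against 37.1, 121 and 2991. Cholesterol synthesis and uptake had 20 of 25 members higher and 1 lower, beside 22.1% and 20.1% of all genes, yet 8 clones had a higher list mean than the 10.9 of clone C. Sc5d, a sterol desaturase, had 3115 and 3278 counts in clone C, against 501, 1402 and 3517, and Fdps, farnesyl diphosphate synthase, had 2147 and 2090, against 110.5, 1009 and 4089, with U highest for both. Of the 986 distinct list members tested, S100a16 was the 1 past the threshold with 1 value per clone.

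**Figure D3:**
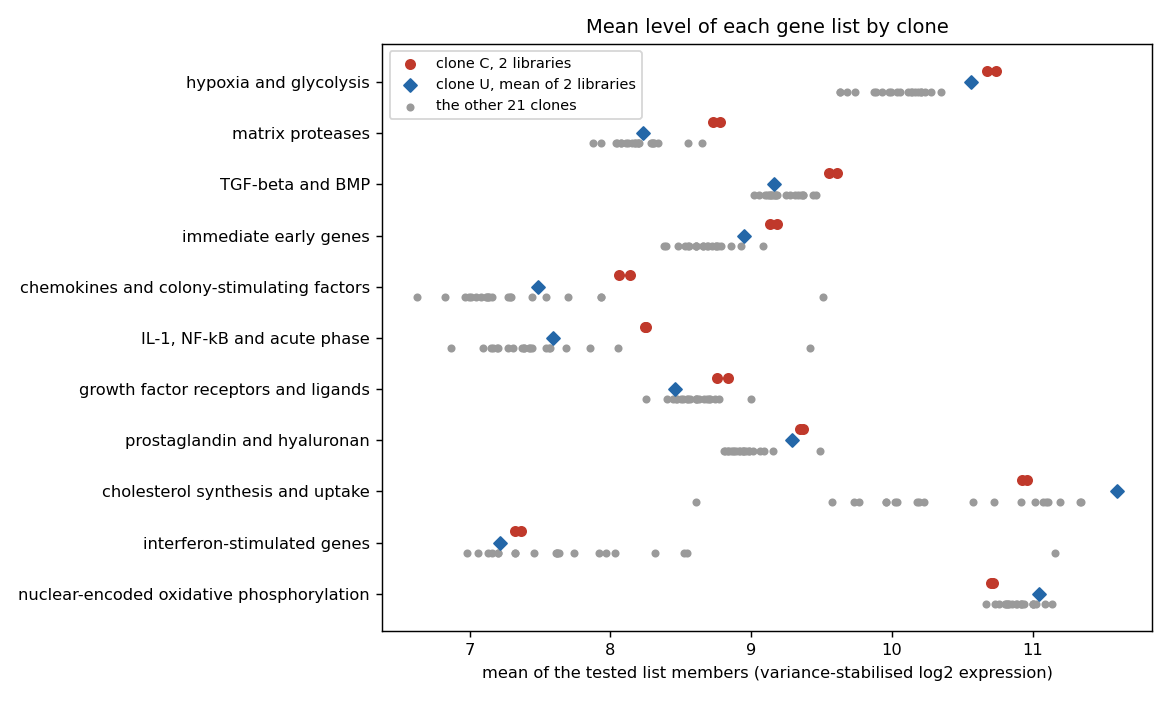
Mean deposited log2 expression over the tested members of 11 gene lists in the 2 libraries of clone C (red), clone U (blue) and the other 21 clones (grey). Clone C lies right of all other clones for hypoxia and glycolysis, matrix proteases, TGF-beta and BMP, and immediate early genes, and inside their range for the other 7 lists.

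Position on the chromosomes also set clone C apart. Over 10598 genes with a mean of at least 50 normalised counts, the median difference of clone C from the mean of the other clones was 0.33 on chromosome 9, higher than in any of the 22 other clones, of which F was highest at 0.22. On chromosome 9 both libraries lay outside the range above for 71 of 606 genes (11.7%) and below for 0, beside 2.32% and 1.52% of all these genes. The shift ran along the whole chromosome, with medians between 0.17 and 0.49 in its 13 windows of 10 Mb. Among the genes on it were Mmp10 and Ctnnb1, which encodes beta-catenin and had 48568 and 53501 counts in clone C, against 17997, 23733 and 33049 in the other clones, and Nt5e, the ecto-enzyme CD73, with 10470 and 10462 in clone C, against 750.2, 2486 and 4678 (both named after their values were seen).

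Chromosomes 3, 15 and 12 were also high in clone C, with medians of 0.34, 0.27 and 0.23, and U exceeded it on chromosomes 3 and 15 and D and U on chromosome 12. On chromosome 12 the median was 0.42 over the 204 genes below 80 Mb and 0.02 over the 169 genes above. Hif1a lies in the raised stretch. On chromosome 16 clone C had the lowest median of the 23 clones, at -0.25, with 20 of 338 genes (5.92%) outside the range below. Clone U was next at -0.20, and the direct median difference between clones C and U on chromosome 16 was -0.03. Chromosome 1 had a median of -0.34, close to U at -0.38, with 52 of 603 genes (8.62%) outside the range below and 1 above. On chromosome 19 the 268 genes below 40 Mb had a median of -0.26, and the 120 above had 0.03. Fam111a lies in the lowered stretch, and its own difference was -4.67. These are medians over genes and no copy number was measured. Slco2a1, named above as higher than every other clone, also lies on chromosome 9. The part of such chromosome shifts in the single genes and list counts given above was not tested.

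**Figure D4:**
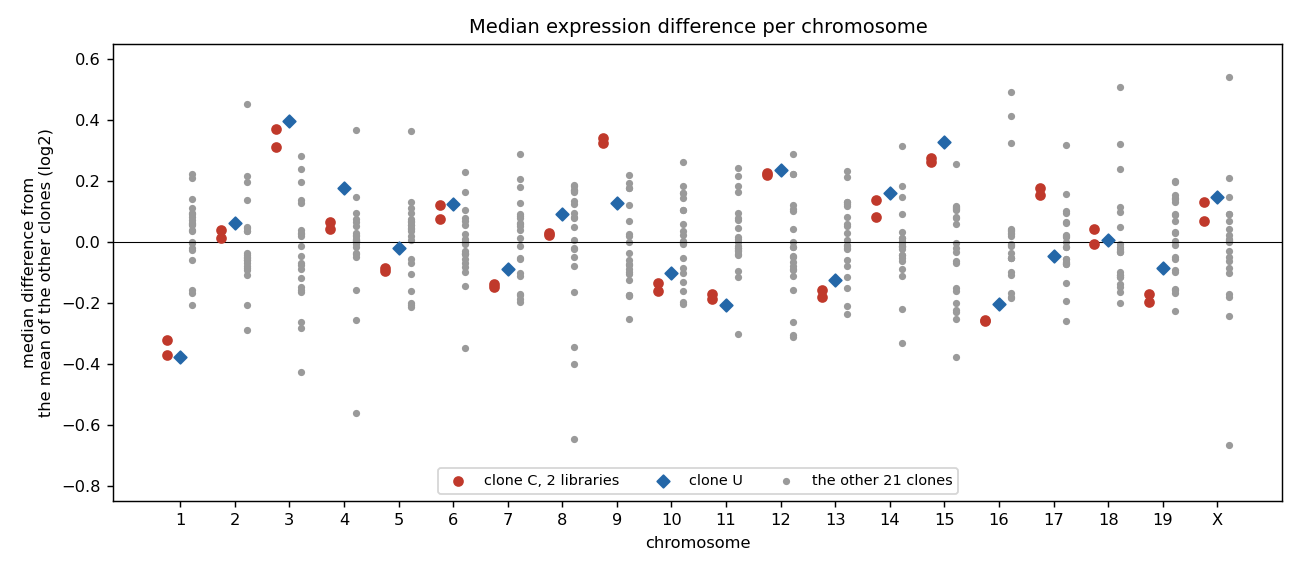
Median difference in log2 expression from the mean of the other clones, per chromosome, over genes with a mean of at least 50 normalised counts, for the 2 libraries of clone C (red), clone U (blue) and the other 21 clones (grey). Clone C is the highest on chromosome 9 and the lowest on chromosome 16, and it lies near U on chromosomes 1, 3, 12, 15 and 16.

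Set against each other clone in turn, clone C was closest to clone U. The limma test over libraries found 2133 genes higher (15.6%) and 1359 lower (9.97%) in clone C than in clone U, a total of 3492, against totals from 4310 (E) to 7541 (G) for the other 21 clones. The median over the 22 clones was 5620 genes. Clone U had the fewest under all 6 alternatives, and on library B of clone C alone the total was 2144. The chromosome medians of clones C and U above share the other clones they are set against, so they stand side by side only.

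Set directly against clone U, the median difference of clone C was 0.24 on chromosome 9 and 0.25 on chromosome 17, and it lay between -0.10 and 0.05 on every other chromosome. On chromosome 9 212 of 606 genes (35.0%) were higher in clone C than in clone U and 17 lower, and on chromosome 17 187 of 537 (34.8%) were higher and 18 lower, beside 16.5% and 11.9% of all these genes. On chromosome 17 clone C had a median of 0.17 from the other clones, and U had -0.05.

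By gene group, the calls between clones C and U fell as follows, beside 15.6% higher and 9.97% lower of all genes tested. The shares of lower members among the matrix proteases and the hypoxia genes did not exceed that of all genes. Of the 24 IL-1, NF-kB and acute-phase genes 10 were higher and 0 lower in clone C than in clone U in limma (2 lower at an unadjusted p under 0.05), with Lcn2 at a difference of 3.84 and Il1a at 2.98. Of the 25 matrix proteases 10 were higher and 2 lower, and Mmp13 differed by 3.01, Mmp3 by 2.58 and Mmp9 by 2.03. Among the genes of MHC class I presentation 12 of 19 passed as higher in clone C and 0 as lower in limma (0 lower also at an unadjusted p under 0.05). Their median difference was 0.54. Chromosome 17 as a whole was higher in clone C than in clone U, at a median of 0.25, and its part in these calls was not tested. Of the 32 hypoxia and glycolysis genes 9 were higher and 2 lower, with a median of 0.10, and Ndrg1 differed by 0.19 (limma adjusted p = 0.299). Cholesterol genes went the other way, with 18 of 25 lower in clone C than in clone U and a median difference of -0.68. Fam111a was at 7.65 and 5.50 counts in clone C, against 454 in clone U.

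**Figure D5:**
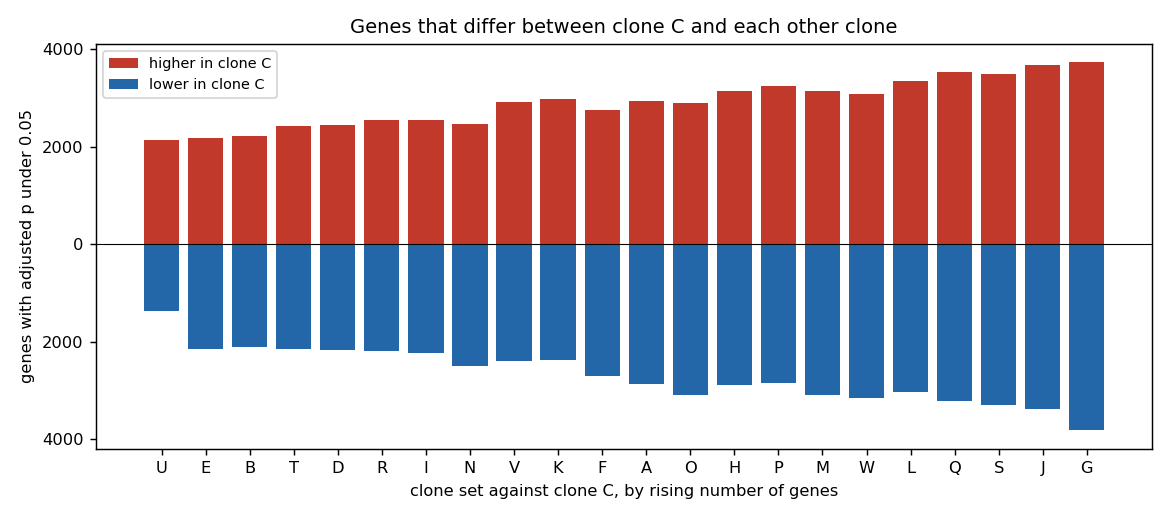
Genes with a limma adjusted p under 0.05 between clone C and each other clone, higher in clone C above 0 and lower below it, in rising order of their sum. Clone U has the fewest at 3492 and clone G the most at 7541.

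Serpine2 and Slpi, secreted protease inhibitors that are known from work in 4T1 cells for a role in vascular mimicry, were inside the range of clones in clone C. Serpine2 had 571 and 625 normalised counts in clone C, against 18.96, 1580 and 9030 in the other clones as lowest, median and highest. Slpi had 3723 and 3784 in clone C, against 26.7, 1232 and 10949. Their differences of -0.92 ± 2.00 and 1.89 ± 2.36 with 1 value per clone had adjusted p of 0.996 and 0.988 in limma.

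In the tumors and lung metastases Fam111a stood at 1193 and 1256 normalised counts in the tumors and 1370 and 1442 in the lung metastases, far above its level in clone C. For 12 of the 16 genes in the plot of genes by clone, every tumor and lung value lay within the range of the 22 other clones. The exceptions were S100a16, Cyth4, Slc12a5 and Bmyc. S100a16 had 151 and 162 counts in the tumors and 38.5 and 45.0 in the lung metastases, against 191 and 199.7 in clone C and at most 36.5 in the other clones. Cyth4 had 64.9 and 136 counts in the lung metastases, Slc12a5 had 50.5 to 72.8 in 3 of the 4 specimens, and Bmyc had 351 in lung metastasis 1. The labels do not say how much host tissue these specimens held, and its part in these values was not tested.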

How the data were processed

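RNA from 23 single-cell-derived 4T1 clones, 2 tumors and 2 lung metastases was sequenced with 76-base reads from 100 ng of RNA, 2 libraries each, per the labels' protocols. The submitters' processing notes name mm10 and the tools Bowtie2, HTSeq and DESeq. Their versions and the strand setting are not stated there or in the labels. The deposited values are on a variance-stabilised log2 scale, made by the authors, on which a gene without reads stands at 5.03. They were inverted to normalised counts and to reads, of which 100% came out whole within 0.01. Because the deposited unit is log2, limma 3.58.1 (R 4.3.3) was the test, and no count test was run.

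The 13637 genes with at least 10 normalised counts in at least 2 clone libraries were tested, with 1 value per clone and over libraries, two-sided, with Benjamini-Hochberg adjustment over all of them at 0.05. Tables and plots used Python 3.11.15, numpy 2.4.6, pandas 2.3.3 and matplotlib 3.10.9. Of 23481 rows, 27 had symbols turned into dates and 1316 had no read. RefSeq annotation (GRCm38.p6) matched 21701 symbols directly and 1586 by synonym. Genes were named by size of difference among those past the threshold with 1 value per clone and a level of at least 50, filled to 8 per direction from those outside the range of all other libraries. Other list members were named after their values were seen. The members and gene lists were chosen with earlier results of these data known. Alternatives were another filter, scale, centring or limma setting, and leaving out each library letter and each clone. The scripts were tested on simulated data. Intervals for single values were not computed, and depth per library limits the precision of low genes.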

Additional observations from a re-analysis of the deposited data

How the results depend on the processing

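With 1 value per clone the number of genes higher in clone C was 8, and it was 828 with no filter on low values, 0 with a minimum of 50 counts (378 at an unadjusted p under 0.05 in limma), 3 on log2(normalised count + 1), 5 against the 20 other non-intravasating clones and 5 without either library letter. Genes lower numbered 2, and 18 with no filter, 1 with the minimum of 50, 4 on log2(normalised count + 1), and 1 with centred libraries, with no trend in limma and against the 20 non-intravasating clones. Leaving out 1 clone or 1 library letter gave 5 to 12 higher and 1 to 6 lower, the highest counts being those without clone U. The library-level test, which uses another error, gave 3011 higher and 2735 lower. Its counts were 2136 and 1533 without library A of clone C, and 1935 and 1676 without library B. Counts outside the range were 475 above and 342 below without library A, and 428 and 368 without library B, and leaving out a clone gave 293 to 347 above and 170 to 254 below. By the counting rule, leaving out a library or a clone can only keep or raise these counts. Against clone U the total of 3492 genes became 2144 without library A and 2359 without library B. With the library letter as a replicate block the library-level counts were 3119 and 2899 and the total against clone U was 3790. The A minus B differences of clone C correlated with those of the other clones at r from -0.278 to 0.145. These values cover clone C only, and whether the letters share an effect over the other clones was not tested. The differences of 98 genes, mostly chosen as the largest in their list, kept their sign under every alternative run (3133 of 3133 values). Several alternatives change only the filter or the error and leave the difference as it was, so the kept sign is no support for these differences. Of 4240 list counts 195 moved by over 1.5 times or to or from 0. Most of the 4240 were counts with 1 value per clone, where nearly every list had 0 members called. For the hypoxia, cholesterol, TGF-beta and immediate early lists the library-level higher calls also became fewer without library B of clone C. Genes with few reads limit the 1-value calls. Beyond the fixed direction of the counts outside the range, the cause of these changes was not tested.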

Other observations

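Among genes tied to metastasis in mammary carcinoma, 12 of 29 were higher and 10 lower in clone C at the library level, beside 22.1% and 20.1% of all genes. Outside the range lay 1 above (Mmp9) and 2 below (Brms1 and Nme1), beside 2.14% and 1.25% of all genes. Brms1, a suppressor of metastasis in breast cancer cells, had 148 and 167 normalised counts in clone C, against 265, 353 and 449 in the other clones as lowest, median and highest. Nme1 had 3184 and 2987 in clone C, against at least 3952 elsewhere, and its neighbour Nme2 had 2396 and 2138, against at least 3200. Nme1 and Nme2 are closely related in sequence, so some reads may be shared between them and both values are uncertain. Such sharing was not tested.

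Lysosomal genes and cathepsins had 11 of 28 members higher and 0 lower in clone C at the library level (0 lower also at an unadjusted p under 0.05 in limma), beside 22.1% and 20.1% of all genes, and without library B of clone C 4 were higher. Of 43 ribosomal protein genes 2 were higher and 7 lower, beside the same shares, and without library A of clone C 1 was lower.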
